A study of Mus musculus with 12 samples.

Results

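The genes described here encode the cytosolic translation initiation and elongation factors of the mouse. They were chosen by name: protein-coding genes whose symbol begins with Eif1 to Eif6, Eef1 or Eef2, without the Eif2ak kinases, Eef2k and the factor methyltransferases whose names end in kmt. The rule found 58 genes among the 55416 gene identifiers of the tables, of which 21928 were named protein-coding genes, and it used no measured value. RNA sequencing compared CT-26 tumour-bearing with control mice in the gastrocnemius, a calf muscle, and in the hypothalamus, a brain region that governs feeding. All 6 mice were male BALB/c animals of 7 weeks at the start, and they carried no transgene or deletion that the labels name. In 3 of them cells of the colon carcinoma line CT-26 had been placed under the skin of the abdomen, and the other 3 had no tumour. The labels call the tumour-bearing mice cachectic, put their weight 7 to 10% below that of healthy mice by day 10, and give day 25 for tissue collection. Each mouse gave 1 library per tissue, so the 12 libraries form 4 groups of 3 separate animals.

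Initiation begins when eIF2 carries the initiator tRNA to the small ribosomal subunit, which eIF1, eIF1A, eIF3 and eIF5 hold ready for scanning. The cap complex eIF4F, made of the cap-binding protein eIF4E, the scaffold eIF4G and the helicase eIF4A, brings this subunit to the messenger RNA, and the 4E-binding proteins block that step until mTORC1 phosphorylates them. During elongation eEF1A delivers aminoacyl-tRNAs and eEF2 moves the ribosome along the messenger. Skeletal muscle is known for its use of eEF1A2 in place of eEF1A1 and for a fall of protein synthesis during wasting.

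The member with the largest change, Eif4ebp1, encodes a protein that competes with eIF4G for one surface of eIF4E, so the coding stretches for that contact are shown for 4 members that carry it. Each is read 5′ to 3′ along the coding strand from the GENCODE M21 transcripts on GRCm38, and the capitals mark the tyrosine codon that opens the contact and the leucine and hydrophobic codons that close it.
Eif4ebp1: TATgaccggaaatttCTGATG
Eif4ebp2: TATgaccgaaagtttCTGTTG
Eif4g1: TATgacagagaattcCTGCTG
Eif4g3: TATgaccgggagttcCTACTG
The Eif4ebp1 stretch lies at chr8:27273337-27273357 on the plus strand, in exon 2. Eif4ebp2 has it at chr10:61435069-61435089 on the minus strand, in exon 2, with 18 of 21 bases the same as in Eif4ebp1. In Eif4g1 it lies at chr16:20681221-20681241 on the plus strand, in exon 13, and in Eif4g3 at chr4:138156650-138156670 on the plus strand, in exon 14, each with 16 of 21 bases the same. All 4 stretches are coding sequence.

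Since many members moved together in muscle, the RefSeq promoters of build GRCm38.p6, windows of equal length around each annotated start, were searched for the E-box CACGTG, which reads the same on both strands. Promoters were matched for 44 of the 58 members, and 11 of these genes (25%) held the motif in at least 1 promoter. The shares were 11.7% of genes tested in the gastrocnemius and 8.09% of all genes, among those with a promoter. A gene with several annotated starts had more promoters in which the motif could be found. Among members higher in CT-26 muscle the motif was in 5 of 28 genes with a promoter (17.9%). Among tested members that were not called it was in 6 of 16 (37.5%). Windows of 40 bases upstream of the start are shown for 4 members that were higher and 2 that were not called, so that promoters with and without a change can be compared. Capitals mark the motif.
Eef2: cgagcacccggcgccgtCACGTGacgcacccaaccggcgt
Eif3f: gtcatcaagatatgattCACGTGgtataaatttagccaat
Eif3k: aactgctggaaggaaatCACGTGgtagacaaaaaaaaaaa
Eif4a1: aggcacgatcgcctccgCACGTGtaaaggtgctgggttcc
Eif4e: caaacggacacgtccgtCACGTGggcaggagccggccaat
Eif4g1: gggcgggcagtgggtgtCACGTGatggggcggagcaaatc
The Eef2 window is chr10:81176571-81176610 (plus strand), that of Eif3f is chr7:108934330-108934369 (plus strand), that of Eif3k is chr7:28981910-28981949 (minus strand) and that of Eif4a1 is chr11:69672590-69672629 (minus strand). Those of Eif4e and Eif4g1 are chr3:138527187-138527226 (plus strand) and chr16:20672656-20672695 (plus strand). A C at the start followed by 4 pyrimidines is the sign of messengers that mTORC1 controls through a 5′ oligopyrimidine tract. It was found at an annotated start of 2 of 44 members, Eif2s3x and Eif3f. That is 4.55%, against 3.14% of tested genes and 3.01% of all genes with a promoter. The search read only the annotated start base and the 4 bases after it. A tract at a start a few bases away was missed, so how many members carry one was not settled. TGATGNAA, the letters searched for the ATF4 composite element, was in 1 member (Eif2s3x) and the forkhead motif GTAAACA in 1 (Eif2s3y), both strands counted, each 2.27%. The shares were 2.74% and 3.14% of genes tested in the gastrocnemius and 4.51% and 4.05% of all genes, among those with a promoter. No member promoter held more than 1 of the 3 motifs given by letters, so none overlapped.

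The deposited counts summed to 26015741 to 42771331 per library in the gastrocnemius and 27195316 to 52535761 in the hypothalamus. Levels are given as deposited TPM, a relative abundance that divides by gene length. Changes were tested on counts after TMM scaling, shown as CPM, counts per 1000000 after that scaling. A ± after a mean is the SD over 3 mice, and a ± after a log2 fold change is its standard error; positive means higher in CT-26 mice. The scales differ in the gastrocnemius: the median log2 fold change of all genes was -0.0015 on TMM-scaled counts, 0.20 with library totals and 0.28 on log2(TPM + 0.5). Genes called higher and lower numbered 2801 and 2616, 3957 and 1662, and 4473 and 1018 in that order. Mitochondrially encoded genes held 8.26, 10.1 and 11.1% of counts in the CT-26 muscles and 15.2, 13.5 and 19.7% in the control muscles. In the hypothalamus called genes were 708 higher and 867 lower, 882 and 647 with library totals, and 108 and 54 in a contrast within the fit of 12 libraries.

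The tissue labels were checked with defining markers. The 6 muscle fibre markers summed to 61249 to 92885 TPM in CT-26 mice and 72250.2 to 107618 in controls of the gastrocnemius. The 6 hypothalamic peptide markers summed to 4848 to 5602 TPM in CT-26 mice and 3271 to 4306 in controls of the hypothalamus. In the hypothalamus 2 of these 6 peptide markers were called higher and 1 lower. Markers of other cells moved with the tumour as well. In the gastrocnemius all 6 tested of 8 neutrophil markers were higher (72.3 to 550.5 TPM in CT-26 mice and 0.790 to 1.22 in controls summed over the list), as were all 5 erythroid markers (2439.8 to 3051 TPM in CT-26 mice and 532 to 892 in controls). Lower there were 4 of 5 fibroblast markers (23.3 to 37.2 TPM in CT-26 mice and 84.3 to 146 in controls). All 4 adipocyte markers (17.2 to 22.6 TPM in CT-26 mice and 69.7 to 89.6 in controls) were lower. So were all 4 Schwann cell markers (18.8 to 21.6 TPM in CT-26 mice and 40.3 to 45.4 in controls). Of the endothelial markers 2 of 4 were lower, and of the muscle fibre markers 2 of 6. The endothelial sums overlapped, at 32.65 to 49.84 TPM in CT-26 mice and 32.67 to 34.5 in controls. Of 5 macrophage markers 2 were higher (35.5 to 129 TPM in CT-26 mice and 29.8 to 38.2 in controls). In the hypothalamus 5 of 6 tested neutrophil markers and 5 of 5 erythroid markers were higher (26.1 to 285 TPM in CT-26 mice and 2.98 to 3.92 in controls, and 1536 to 2139.8 TPM in CT-26 mice and 714 to 1127 in controls). All 4 oligodendrocyte markers were lower (1125.5 to 1384 TPM in CT-26 mice and 1969 to 2229.8 in controls). So were 2 of 3 tested Schwann cell markers, 1 of 4 astrocyte markers and 1 of 5 neuron markers of the hypothalamus. Of its 5 macrophage markers 1 was higher, and of its 4 endothelial markers 1 was higher and 1 lower. No list had a marker at 0 in all 6 libraries of either tissue. The part of these cells, and of the mitochondrial share, in the results on the members was not tested. In bulk tissue fewer cells of a type and less RNA per cell cannot be told apart.

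In the gastrocnemius most translation factor messengers rose. Of the 58 members 56 were tested (Eif4e1b and Eif4ebp3 were too low), and 36 were called higher in CT-26 mice at an adjusted p below 0.05, 64.3% of those tested, against 19.6% of all genes called higher and 38.0% called in either direction. None was called lower, against 18.3% of all genes, with edgeR or with DESeq2, and none had an unadjusted p below 0.05 in that direction. In a contrast within the fit of 12 libraries 1 member, Eif4e, was called lower (-0.29, adjusted p = 0.025). The median log2 fold change of the members was 0.64, and 8 called members changed by at least 1 on that scale. With library totals 43 members were called higher and on log2(TPM + 0.5) 50, so the number depends on the scale. The 36 kept a positive sign in the 16 alternatives run per gene, and summing Eif1a with its paralog gave the single exception. The call itself was lost in 5 of the 16 for Eif2a, Eif2b4, Eif2s1 and Eif4b, in 4 for Eif4a3, in 3 for Eif2d, in 2 for Eef2, Eif2s3y and Eif3d and in 1 for Eif6, mostly when 1 mouse was left out. CPM of all 3 CT-26 mice lay above all 3 controls for 41 members and below them for 3, against 26.3% and 25.3% of all genes. In the hypothalamus 57 members were tested; 4 were called higher and 1 lower, 7.02% and 1.75%, against 3.94% and 4.83% of all genes and 8.77% called in either direction, with a member median of 0.07. There the CT-26 mice lay wholly above the controls for 20 members and wholly below for 5, against 14.7% and 15.6% of all genes.

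**Figure D1:**
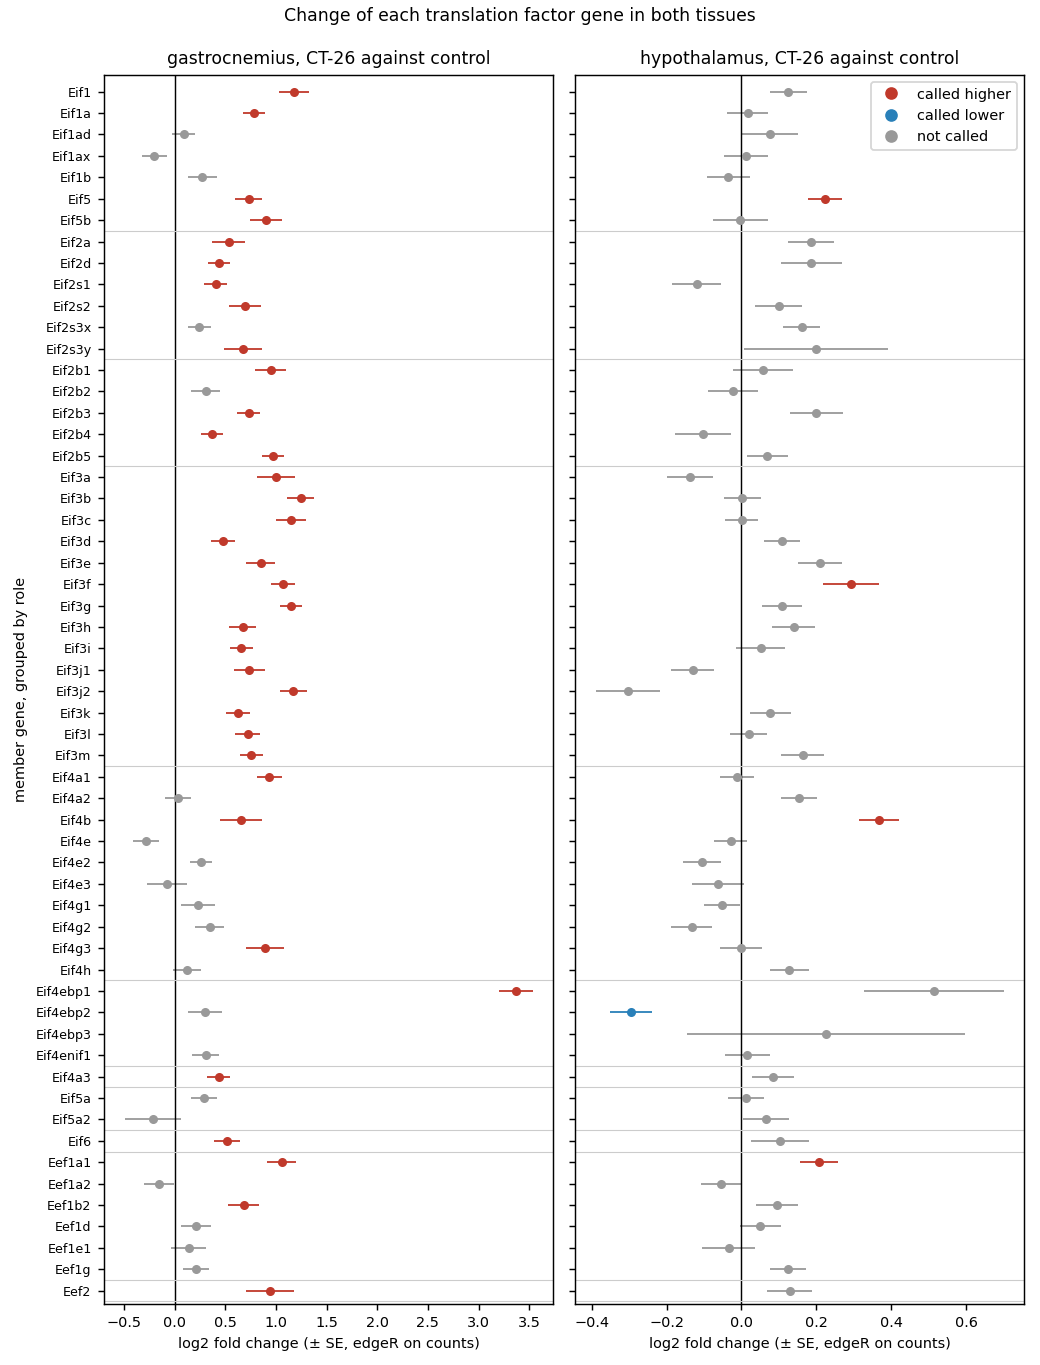
Log2 fold change of each tested member (points, bars are standard errors) in the gastrocnemius, left, and the hypothalamus, right, with genes grouped by role between grey lines; the horizontal scales differ. In the gastrocnemius 36 members are called higher and Eif4ebp1 stands far to the right at 3.37, while in the hypothalamus 4 are called higher and 1 lower.

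The summed TPM of the members was also higher in the CT-26 muscles. It was 10912, 9062 and 9093 TPM in the CT-26 mice and 4876, 4809 and 4005.5 TPM in the controls, so that the groups did not overlap. Without Eif4ebp1 the means were 9317 ± 974 and 4539.9 ± 481 TPM. In the hypothalamus the sums were 7207, 7194 and 6720.4 TPM against 6433, 6578 and 6711.5 TPM, also without overlap but by a narrow margin. TPM of the 3 CT-26 muscles lay above all controls for 52 of the 56 tested members and below them for 0, against 40.9% and 10.4% of all genes tested, a scale on which all genes lean upward. In the hypothalamus TPM lay above for 10 of 57 and below for 6, against 10.5% and 15.6% of all genes. On the annotation 22 of the 58 members share exonic bases with another gene, 12 of them on the opposite strand, and 7 share over 10%: Eif1ad, Eif1b, Eif3d, Eif3j1, Eif4e3, Eif4ebp3 and Eif5b. Since the strand setting of the counting is not given, reads of these genes and their neighbours cannot be told apart with certainty.

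Eif4ebp1, the 4E-binding protein that sequesters eIF4E when mTORC1 is inactive, had the largest change of any member (ENSMUSG00000031490, GRCm38 chr8:27260329-27276674). Its level was 471, 308 and 338 TPM in CT-26 mice and 22.9, 29.0 and 19.8 in controls in the gastrocnemius. In TPM, a scale on which all genes lean upward in this muscle, each CT-26 mouse was more than 10 times the highest control. In CPM the gap was smaller, at 418, 333 and 398 CPM in CT-26 mice and 33.7, 43.2 and 34.4 in controls. On the tested scale the means were 383 ± 44.5 against 37.1 ± 5.30 CPM, a log2 fold change of 3.37 ± 0.17 (adjusted p = 6.9e-05). In the hypothalamus it was near the bottom of the range, at 1.53, 1.36 and 1.49 TPM in CT-26 mice and 1.43, 1.11 and 1.25 in controls; the CPM of the CT-26 mice lay above the controls but the change of 0.51 ± 0.19 was not called (adjusted p = 0.12).

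Eif4ebp2, the second 4E-binding protein and the main one of the brain, was not called in muscle. In the gastrocnemius it measured 95.4, 80.2 and 58.1 TPM in CT-26 mice and 54.3, 53.6 and 38.7 in controls, and its CPM overlapped between groups at 367 ± 58.7 against 298 ± 32.4 CPM, a log2 fold change of 0.30 ± 0.17 (adjusted p = 0.19). On log2(TPM + 0.5) it was called there (0.65, adjusted p = 0.034). In the hypothalamus it was the only member called lower: it measured 13.4, 14.1 and 13.1 TPM in CT-26 mice and 17.2, 17.8 and 15.6 in controls, with every CT-26 library below every control, and the means were 70.8 ± 0.678 against 86.8 ± 6.18 CPM, a log2 fold change of -0.30 ± 0.06 (adjusted p = 0.012). That call was lost without control mouse 2, on log2(TPM + 0.5) (adjusted p = 0.068) and in the 12-library contrast (adjusted p = 0.41). Eif4ebp3, the least abundant of the family, measured 0.550, 0.380 and 0.630 TPM in CT-26 mice and 0.160, 0.340 and 0.760 in controls in muscle, too low to test there, and was not called in the hypothalamus (0.23 ± 0.37). Eif4enif1, which carries eIF4E into the nucleus and to P-bodies, was not called in muscle (0.31 ± 0.13, adjusted p = 0.11) or in the hypothalamus (0.02 ± 0.06).

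**Figure D2:**
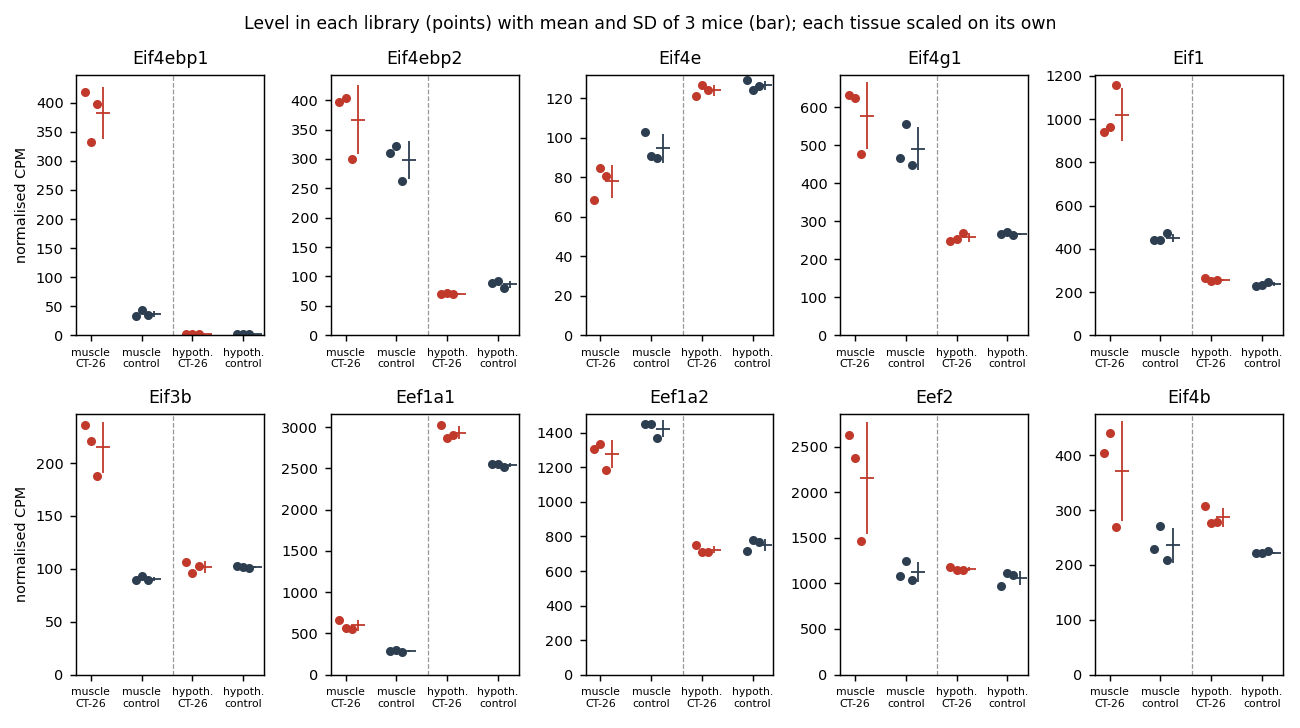
Normalised CPM of 10 members in each library (points; red CT-26, dark control) with the mean and SD of 3 mice (bar), the gastrocnemius left and the hypothalamus right of the dashed line, each tissue scaled on its own. The 3 CT-26 muscles sit far above the controls for Eif4ebp1, Eif1, Eif3b and Eef1a1, while those for Eif4e and Eef1a2 sit below the controls on this scale, a direction that turns on log2(TPM + 0.5).

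The make-up of the 4E-binding protein messengers differed between the muscle groups. Eif4ebp1 made up 83.1, 79.3 and 85.2% of TPM in CT-26 mice and 29.6, 35.0 and 33.4% in controls, means of 82.5 ± 3.01% and 32.6 ± 2.79%, and these groups did not overlap (exact two-sided permutation test, p = 0.1, the smallest that 3 against 3 mice can give). In the hypothalamus its share was 9.49, 8.06 and 9.30% of TPM in CT-26 mice and 7.50, 5.50 and 6.72% in controls, again without overlap (exact p = 0.1) but with Eif4ebp2 the majority in every library. The ratio of Eif4ebp1 to Eif4e in TPM was 10.9, 8.43 and 9.76 in the CT-26 muscles and 0.560, 0.811 and 0.746 in the control muscles (exact p = 0.1). The 3 repressor messengers summed over Eif4e gave 13.1, 10.6 and 11.5 in the CT-26 muscles and 1.89, 2.32 and 2.24 in the control muscles (exact p = 0.1). Repressor messengers together thus exceeded Eif4e in every muscle of both groups, while Eif4ebp1 alone did so in the CT-26 muscles and not in the controls.

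Of the cap complex and its cofactors 3 of 10 tested members were called in muscle: Eif4a1, Eif4b and Eif4g3. Eif4e, the cap-binding subunit, measured 43.2, 36.6 and 34.7 TPM in CT-26 mice and 40.8, 35.8 and 26.5 in controls, and its CPM was 68.7, 84.5 and 80.8 CPM in CT-26 mice and 103, 91.0 and 89.9 in controls. TPM overlapped between groups while all 3 CPM values of CT-26 mice lay below the controls, so its direction depends on the scale: the log2 fold change was -0.28 ± 0.13 on counts (adjusted p = 0.12) and 0.16 on log2(TPM + 0.5), neither called. In the hypothalamus Eif4e measured 52.0, 52.2 and 48.2 TPM in CT-26 mice and 47.9, 51.5 and 56.0 in controls, overlapping groups (-0.03 ± 0.04). The related cap-binding genes Eif4e2 and Eif4e3 were not called in muscle (0.26 ± 0.11 and -0.07 ± 0.20), the latter turning positive, at 0.26, on log2(TPM + 0.5). Eif4e1b, known from oocytes, was listed at 0 in all control hypothalamus libraries and at 0, 0.0300 and 0 TPM in CT-26 mice and 0.0600, 0.0400 and 0.0400 in controls in muscle.

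Eif4g1, the main scaffold, measured 193, 166 and 123 TPM in CT-26 mice and 106, 116 and 86.4 in controls, and its CPM overlapped at 577 ± 87.9 against 491 ± 57.3 CPM, a log2 fold change of 0.23 ± 0.17 (adjusted p = 0.3). It measured 66.7, 70.1 and 70.2 TPM in CT-26 mice and 74.6, 67.2 and 73.3 in controls in the hypothalamus, where it was not called (-0.05 ± 0.05). Eif4g3, its paralog with the same 4E-binding contact, did rise in muscle, from 27.3, 31.7 and 22.5 TPM in the controls to 80.2, 69.9 and 50.1 TPM in the CT-26 mice, without overlap (0.90 ± 0.19, adjusted p = 0.007). It measured 46.0, 45.8 and 45.2 TPM in CT-26 mice and 44.5, 49.0 and 48.8 in controls in the hypothalamus. Eif4g2, a scaffold without the eIF4E contact, was not called in muscle (0.35 ± 0.14, adjusted p = 0.088), where its levels were 342, 336 and 281 TPM in CT-26 mice and 216, 194 and 187 in controls; in the hypothalamus they were 168, 198 and 205 TPM in CT-26 mice and 254, 218 and 223 in controls.

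The helicase paralogs differed. Eif4a1 measured 129, 86.7 and 103 TPM in CT-26 mice and 47.1, 43.4 and 36.9 in controls in muscle, without overlap, and its means were 133 ± 13.9 against 69.3 ± 1.61 CPM, a log2 fold change of 0.94 ± 0.12 (adjusted p = 0.0011). Eif4a2 measured 208, 201 and 176 TPM in CT-26 mice and 145, 148 and 129.7 in controls, but its CPM overlapped at 260.4 ± 25.1 against 255 ± 7.92 CPM, a log2 fold change of 0.03 ± 0.13 (adjusted p = 0.87). On log2(TPM + 0.5) it was called at 0.46 (adjusted p = 0.039), so the call depends on the scale. As a share of both, Eif4a2 was 61.8, 69.8 and 63.0% of TPM in CT-26 mice and 75.5, 77.3 and 77.9% in controls, lower in every CT-26 mouse (means of 64.9 ± 4.34% and 76.9 ± 1.26%, exact p = 0.1). In the hypothalamus Eif4a1 measured 139, 140.5 and 132 TPM in CT-26 mice and 139, 135 and 142 in controls. Eif4a2 measured 457, 491 and 437 TPM in CT-26 mice and 401, 407 and 423 in controls. There the Eif4a2 share was 76.7, 77.8 and 76.9% of TPM in CT-26 mice and 74.3, 75.2 and 74.9% in controls, higher in every CT-26 mouse (exact p = 0.1). Neither gene was called there (-0.01 ± 0.05 and 0.15 ± 0.05). The helicase cofactor Eif4b was called higher in muscle, with TPM of 155, 137 and 81.4 TPM in CT-26 mice and 61.8, 70.9 and 47.8 in controls. Its CPM groups overlapped all the same (405, 442 and 269 CPM in CT-26 mice and 229, 271 and 208 in controls; 0.66 ± 0.21, adjusted p = 0.036). The call was lost without CT-26 mouse 1 or 2 or any 1 control (largest adjusted p = 0.11). The other cofactor, Eif4h, was not called (0.12 ± 0.14).

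Factors of start codon selection rose in 4 of 7 cases, Eif1, Eif1a, Eif5 and Eif5b. Eif1, which guards the fidelity of start codon choice, was the most abundant member of control muscle in TPM. It measured 2295, 1833 and 2734 TPM in CT-26 mice and 756, 774 and 701 in controls. In TPM the lowest CT-26 value was more than 2 times the highest control, and in CPM these were 939 and 473. Its means were 1021 ± 121 against 451.5 ± 18.3 CPM, a log2 fold change of 1.18 ± 0.15 (adjusted p = 0.00095). In the hypothalamus it measured 481, 479 and 447 TPM in CT-26 mice and 392.4, 439 and 467 in controls, uncalled at 0.13 ± 0.05. Eif5, the GTPase activator of eIF2, measured 148, 104 and 98.0 TPM in CT-26 mice and 62.6, 53.7 and 47.4 in controls in muscle (0.73 ± 0.13, adjusted p = 0.004). Eif5b, the GTPase of subunit joining, measured 78.6, 83.3 and 58.1 TPM in CT-26 mice and 34.1, 30.1 and 26.7 in controls (0.90 ± 0.16, adjusted p = 0.0034). Neither overlapped between groups.

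Eif1a, an eIF1A gene, measured 10.2, 8.94 and 9.55 TPM in CT-26 mice and 4.45, 5.06 and 4.43 in controls in muscle (0.79 ± 0.11, adjusted p = 0.0014). Its more abundant X-linked paralog Eif1ax was not called on counts (-0.20 ± 0.12, adjusted p = 0.23) yet was called higher on log2(TPM + 0.5), at 0.565 (adjusted p = 0.022). The coding sequences share 85.6% of 432 aligned bases, so the split of reads between them is uncertain. Summed, the pair gave -0.05 (adjusted p = 0.78). Eif1b and Eif1ad were not called in muscle (0.27 ± 0.14 and 0.09 ± 0.11). In the hypothalamus Eif1a measured 35.5, 37.6 and 35.4 TPM in CT-26 mice and 38.7, 35.6 and 37.5 in controls and Eif5b 21.8, 24.9 and 26.2 TPM in CT-26 mice and 27.2, 24.7 and 23.3 in controls, both with overlapping groups.

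Of the eIF2 genes and their relatives 5 of 6 rose in muscle. Eif2s1, the alpha subunit whose phosphorylation halts initiation, measured 20.5, 15.5 and 17.9 TPM in CT-26 mice and 10.53, 12.1 and 9.62 in controls. Its means were 48.5 ± 3.93 against 36.7 ± 2.21 CPM, a log2 fold change of 0.40 ± 0.12 (adjusted p = 0.026), among the smallest called changes in muscle. The call was lost in 5 of 16 alternatives: without CT-26 mouse 1, without each of the 3 controls in turn, and with effective lengths as offsets (largest adjusted p = 0.11). In the hypothalamus Eif2s1 measured 12.4, 12.5 and 11.6 TPM in CT-26 mice and 13.5, 13.1 and 13.9 in controls and was not called (-0.12 ± 0.07). The beta subunit Eif2s2 measured 166, 184 and 147 TPM in CT-26 mice and 92.9, 83.8 and 63.5 in controls in muscle (0.70 ± 0.16, adjusted p = 0.01). Hypothalamic Eif2s2 measured 51.8, 52.2 and 56.5 TPM in CT-26 mice and 51.3, 49.2 and 50.8 in controls. The CT-26 muscles were above every control for both subunits.

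The gamma subunit is encoded on both sex chromosomes. The Y-linked Eif2s3y was called (0.68 ± 0.19, adjusted p = 0.022) and the X-linked Eif2s3x was not (0.24 ± 0.11, adjusted p = 0.12). Their coding sequences share 86.3% of bases, so the split is uncertain, and the summed pair was called at 0.40 (adjusted p = 0.041). Eif2d, which can deliver tRNA without eIF2, measured 23.3, 22.6 and 20.7 TPM in CT-26 mice and 14.0, 13.7 and 10.8 in controls (0.44 ± 0.11, adjusted p = 0.016). Eif2a, an unrelated initiation factor despite its name, changed by 0.53 ± 0.16 (adjusted p = 0.034).

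The eIF2B complex recharges eIF2 with GTP and is the target of phosphorylated eIF2 alpha; 4 of its 5 subunit genes rose in muscle. Eif2b5, the catalytic epsilon subunit, measured 61.6, 47.6 and 46.4 TPM in CT-26 mice and 20.6, 20.1 and 17.6 in controls. Its means were 93.0 ± 5.56 against 47.4 ± 0.732 CPM, a log2 fold change of 0.97 ± 0.11 (adjusted p = 0.00061). It measured 22.5, 23.8 and 20.7 TPM in CT-26 mice and 21.6, 21.4 and 21.8 in controls in the hypothalamus and was not called (0.07 ± 0.05). Eif2b1 measured 42.4, 39.9 and 27.8 TPM in CT-26 mice and 14.7, 16.8 and 12.5 in controls in muscle (0.95 ± 0.15). Hypothalamic Eif2b1 measured 13.4, 13.3 and 12.2 TPM in CT-26 mice and 12.1, 11.9 and 13.7 in controls. Eif2b1 encodes the alpha subunit, which senses phosphorylated eIF2. Eif2b3 measured 26.8, 21.5 and 22.4 TPM in CT-26 mice and 12.5, 10.6 and 9.32 in controls in muscle (0.73 ± 0.11). Hypothalamic Eif2b3 measured 14.9, 16.0 and 15.1 TPM in CT-26 mice and 14.5, 13.6 and 13.2 in controls. The muscle groups did not overlap for any of these. Eif2b4 had the smallest called change of any member in muscle, 0.37 ± 0.11 (adjusted p = 0.028), from levels of 50.2, 33.8 and 36.8 TPM in CT-26 mice and 22.5, 28.3 and 22.4 in controls. Hypothalamic Eif2b4 measured 19.8, 13.7 and 16.7 TPM in CT-26 mice and 16.5, 17.3 and 21.2 in controls. Eif2b2 was not called (0.31 ± 0.14, adjusted p = 0.12).

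eIF3, the largest initiation factor, binds the small subunit and bridges it to eIF4G. All 14 of its genes rose in muscle, from 0.48 for Eif3d to 1.24 for Eif3b with a median of 0.80, and no subunit gene overlapped between groups in CPM. With Eif3j1 and Eif3j2 left out, the median subunit measured 136, 112 and 98.6 TPM in the CT-26 muscles and 45.1, 42.6 and 37.6 TPM in the controls. In the hypothalamus it measured 65.9, 67.4 and 61.5 against 60.8, 61.1 and 60.1 TPM. There 1 of 14 was called, Eif3f, and the median change was 0.06.

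**Figure D3:**
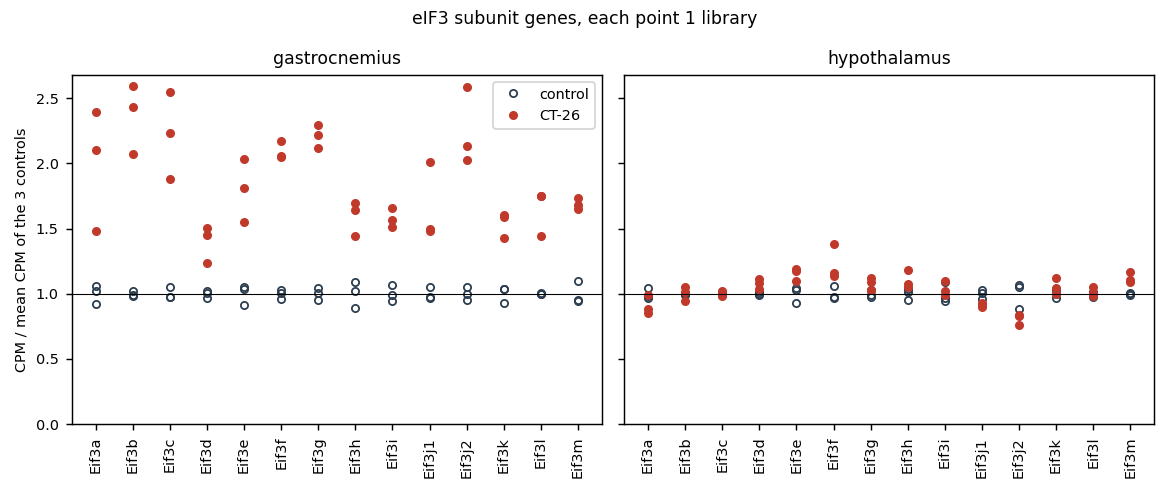
CPM of each eIF3 subunit gene in each library relative to the mean of the 3 controls of its tissue (filled red CT-26, open dark control). In the gastrocnemius all CT-26 points lie above all control points for each of the 14 genes, against 26.3% of all genes. In the hypothalamus the groups overlap for 6 of the 14, with CT-26 above for 6 and below for 2, against 14.7% and 15.6% of all genes. The 2 below are Eif3j1 and Eif3j2, whose split of reads cannot be trusted.

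The core subunits a, b and c hold the complex together. Eif3b measured 116, 89.5 and 75.1 TPM in CT-26 mice and 32.1, 31.7 and 27.1 in controls in muscle. Its means were 215 ± 24.2 against 90.7 ± 1.97 CPM, a log2 fold change of 1.24 ± 0.13 (adjusted p = 0.00046). Hypothalamic Eif3b measured 41.8, 41.4 and 38.9 TPM in CT-26 mice and 43.7, 40.2 and 42.5 in controls. Eif3c measured 162, 117 and 97.0 TPM in CT-26 mice and 47.9, 46.9 and 39.2 in controls in muscle (1.15 ± 0.15, adjusted p = 0.00096). Hypothalamic Eif3c measured 62.9, 66.2 and 63.3 TPM in CT-26 mice and 64.4, 63.7 and 65.1 in controls. Eif3c thus stood apart between the muscle groups and overlapped in the hypothalamus, as Eif3b did. Eif3a measured 114, 93.9 and 61.6 TPM in CT-26 mice and 34.3, 35.0 and 31.5 in controls in muscle (1.00 ± 0.19, adjusted p = 0.0045). Hypothalamic Eif3a measured 56.0, 56.5 and 57.0 TPM in CT-26 mice and 63.6, 57.6 and 62.4 in controls. In TPM of these 3 genes CT-26 mouse 1 was highest and mouse 3 lowest, and mouse 3 was still above every control. Eif3g, an RNA-binding subunit, measured 128, 108 and 100.2 TPM in CT-26 mice and 42.3, 38.3 and 36.1 in controls in muscle. Its means were 82.0 ± 3.23 against 37.1 ± 1.69 CPM, a log2 fold change of 1.15 ± 0.11 (adjusted p = 0.00035). Hypothalamic Eif3g measured 69.0, 69.3 and 60.7 TPM in CT-26 mice and 60.2, 60.4 and 64.1 in controls. Its muscle groups were wide apart, and its hypothalamic TPM overlapped. Eif3i, which joins Eif3b and Eif3g in one module, measured 145, 124 and 129 TPM in CT-26 mice and 75.4, 66.6 and 53.9 in controls in muscle (0.66 ± 0.11). Hypothalamic Eif3i measured 87.2, 84.5 and 75.2 TPM in CT-26 mice and 75.4, 74.9 and 87.3 in controls.

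Eif3f, a subunit that has been tied to muscle mass because the atrophy ligase atrogin-1 marks it for degradation, was higher and not lower at the messenger level. It measured 177, 156 and 140.1 TPM in CT-26 mice and 63.5, 59.0 and 51.4 in controls in muscle. Its means were 289 ± 9.31 against 138 ± 5.40 CPM, a log2 fold change of 1.07 ± 0.12 (adjusted p = 0.00058). In the hypothalamus it measured 79.3, 68.6 and 62.3 TPM in CT-26 mice and 56.4, 61.8 and 57.8 in controls (0.29 ± 0.07, adjusted p = 0.037), also without overlap. It was the one eIF3 gene called in both tissues. Eif3e measured 195, 179.9 and 136 TPM in CT-26 mice and 82.6, 77.4 and 59.4 in controls in muscle (0.85 ± 0.14). Hypothalamic Eif3e measured 71.2, 68.7 and 67.7 TPM in CT-26 mice and 61.5, 63.1 and 56.3 in controls. Eif3e is part of the outer ring of the complex, and its CT-26 libraries lay above the controls in both tissues. Eif3h measured 235, 198 and 167 TPM in CT-26 mice and 105, 107 and 76.4 in controls in muscle (0.67 ± 0.13). Hypothalamic Eif3h measured 149, 141.5 and 128 TPM in CT-26 mice and 119, 132 and 129.9 in controls. Eif3h, another ring subunit, overlapped in the hypothalamus in TPM. Eif3m, which belongs to the same outer ring of subunits, measured 86.5, 76.3 and 70.4 TPM in CT-26 mice and 41.1, 34.6 and 28.8 in controls in muscle (0.76 ± 0.11). Hypothalamic Eif3m measured 42.9, 41.6 and 38.8 TPM in CT-26 mice and 36.4, 37.3 and 36.8 in controls.

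The other eIF3 genes were called as well. Eif3d, a subunit with cap-binding activity of its own, measured 52.3, 37.6 and 44.7 TPM in CT-26 mice and 24.7, 24.5 and 23.7 in controls in muscle. Its means were 59.7 ± 6.03 against 42.8 ± 1.17 CPM, a log2 fold change of 0.48 ± 0.12 (adjusted p = 0.014). Hypothalamic Eif3d measured 61.0, 58.1 and 48.8 TPM in CT-26 mice and 51.8, 50.1 and 49.8 in controls. On the annotation 43.3% of its exonic bases lie opposite a non-coding gene, Gm17638, so its values are less certain. Eif3k, the most abundant subunit in control hypothalamus, measured 212, 192 and 193 TPM in CT-26 mice and 100.0, 106 and 89.0 in controls in muscle (0.62 ± 0.12). Hypothalamic Eif3k measured 208, 192 and 183 TPM in CT-26 mice and 172, 188 and 185 in controls. Its muscle groups stood apart and its hypothalamic groups overlapped. Eif3l, the partner of Eif3k, measured 73.7, 60.6 and 49.3 TPM in CT-26 mice and 30.6, 29.1 and 25.7 in controls in muscle (0.72 ± 0.12). Hypothalamic Eif3l measured 43.6, 42.3 and 40.1 TPM in CT-26 mice and 42.5, 40.8 and 42.2 in controls. Eif3j is encoded by a pair of genes whose coding sequences are the same over all 783 bases aligned, so the split between them cannot be trusted. Eif3j1 was listed at 46.3, 52.1 and 36.6 TPM in CT-26 mice and 21.7, 22.3 and 18.4 in controls (0.74 ± 0.15) and Eif3j2 at 95.1, 94.8 and 73.3 TPM in CT-26 mice and 32.3, 32.5 and 25.9 in controls (1.17 ± 0.13) in muscle. Summed, the pair rose by 0.92 ± 0.15 (adjusted p = 0.0026). In the hypothalamus Eif3j1 was listed at 7.50, 7.55 and 7.16 TPM in CT-26 mice and 7.97, 8.40 and 8.28 in controls and Eif3j2 at 8.35, 9.37 and 8.82 TPM in CT-26 mice and 9.75, 11.7 and 11.7 in controls, and the summed pair was not called (-0.19, adjusted p = 0.059).

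Of the factors outside these complexes Eif6 and Eif4a3 were called and the eIF5A genes were not. Eif5a, the hypusine-bearing factor that helps ribosomes past difficult peptide bonds, measured 409.7, 369 and 385 TPM in CT-26 mice and 268, 259.5 and 206 in controls in muscle, and its means were 353 ± 26.5 against 289 ± 12.02 CPM, a log2 fold change of 0.29 ± 0.13 (adjusted p = 0.11). It did not pass the test although the CT-26 mice lay above the controls. It measured 235, 232 and 219 TPM in CT-26 mice and 226, 221 and 238 in controls in the hypothalamus (0.01 ± 0.05). Eif5a2, its paralog, was close to the floor of the muscle data (0.290, 0.170 and 0.25 TPM in CT-26 mice and 0.270, 0.180 and 0.190 in controls, -0.21 ± 0.28, or 0.05 on log2(TPM + 0.5)). Eif6, which keeps the large ribosomal subunit from joining too early, measured 64.2, 52.2 and 46.7 TPM in CT-26 mice and 29.0, 25.3 and 30.7 in controls in muscle. Its means were 31.3 ± 2.19 against 21.9 ± 2.45 CPM, a log2 fold change of 0.51 ± 0.13 (adjusted p = 0.014). Hypothalamic Eif6 measured 47.8, 44.9 and 43.5 TPM in CT-26 mice and 55.2, 47.4 and 43.4 in controls, where it was not called (0.10 ± 0.08, or -0.09 on log2(TPM + 0.5)). Eif4a3, the helicase of the exon junction complex, measured 47.3, 33.1 and 47.0 TPM in CT-26 mice and 28.9, 22.1 and 22.0 in controls in muscle (0.44 ± 0.12, adjusted p = 0.019).

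Among elongation factors Eef1a1, Eef1b2 and Eef2 rose in muscle. Eef1a1, the widely expressed form of eEF1A (ENSMUSG00000037742, GRCm38 chr9:78478449-78489151), measured 591, 409 and 399 TPM in CT-26 mice and 181, 182 and 149 in controls. Its means were 595 ± 62.1 against 286 ± 10.8 CPM, a log2 fold change of 1.06 ± 0.14 (adjusted p = 0.0011). Eef1a2, the form of adult muscle and neurons (ENSMUSG00000016349, GRCm38 chr2:181147653-181157014), measured 943, 794 and 695 TPM in CT-26 mice and 764, 725 and 602 in controls and was not called: its CPM was 1307, 1339 and 1188 CPM in CT-26 mice and 1453, 1451 and 1369.8 in controls, all CT-26 mice below the controls, with a log2 fold change of -0.16 ± 0.15 (adjusted p = 0.43) that turned to 0.21 on log2(TPM + 0.5). The share of Eef1a2 in both, which no scaling between libraries affects, was 61.5, 66.0 and 63.6% of TPM in CT-26 mice and 80.8, 80.0 and 80.2% in controls. Every CT-26 mouse was below every control, with means of 63.7 ± 2.28% and 80.3 ± 0.453% (exact p = 0.1, the smallest possible). Eef2, the translocase, measured 1253, 947 and 575 TPM in CT-26 mice and 380.2, 414 and 307 in controls with means of 2157 ± 611 against 1121 ± 108 CPM, a log2 fold change of 0.94 ± 0.24 (adjusted p = 0.015); CT-26 mouse 3 was the lowest of its group, and the groups did not overlap.

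**Figure D4:**
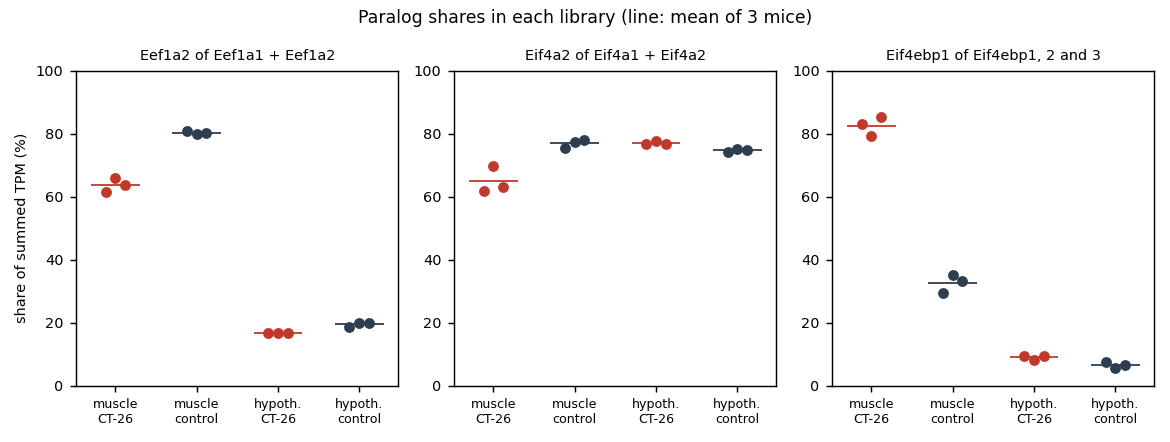
Share of summed TPM held by Eef1a2, Eif4a2 and Eif4ebp1 among their paralogs in each library (points; red CT-26, dark control; line, mean of 3 mice). In muscle the Eef1a2 share averages 80.3% in controls and 63.7% in CT-26 mice and the Eif4ebp1 share 32.6% and 82.5%, while differences in the hypothalamus are below 3 percentage points.

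The other genes named Eef1 were less uniform. Eef1b2 measured 230.5, 209 and 277 TPM in CT-26 mice and 125, 111 and 89.5 in controls in muscle (0.68 ± 0.15, adjusted p = 0.0094). Hypothalamic Eef1b2 measured 181, 185 and 154 TPM in CT-26 mice and 132, 152 and 162 in controls. Eef1d, Eef1g and Eef1e1 were not called in muscle, at 0.21 ± 0.15, 0.21 ± 0.13 and 0.14 ± 0.17. The ratio of summed Eef1a1 and Eef1a2 to Eef2 in TPM was 1.23, 1.27 and 1.90 in the CT-26 muscles and 2.49, 2.19 and 2.45 in the controls, lower in every CT-26 mouse (exact p = 0.1). In the hypothalamus it was 5.62, 5.53 and 5.58 and 5.80, 5.22 and 5.27 (exact p = 0.4).

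In the hypothalamus the 4 members called higher were Eif4b, Eif3f, Eif5 and Eef1a1, all of which were also called higher in muscle. Eif4b measured 91.8, 85.7 and 80.8 TPM in CT-26 mice and 67.8, 67.7 and 68.7 in controls. Its means were 287 ± 17.4 against 223 ± 1.86 CPM, a log2 fold change of 0.37 ± 0.05 (adjusted p = 0.003). Eif5 measured 110.3, 115 and 111 TPM in CT-26 mice and 106, 101 and 101 in controls. Its means were 330.2 ± 7.04 against 283 ± 2.48 CPM, a log2 fold change of 0.22 ± 0.05 (adjusted p = 0.015). Eef1a1, the most abundant member there, measured 2142.5, 2116 and 1973 TPM in CT-26 mice and 1809, 1817 and 1808 in controls. Its means were 2932 ± 79.5 against 2540.2 ± 23.98 CPM, a log2 fold change of 0.21 ± 0.05 (adjusted p = 0.033). All 3 genes had every CT-26 library above every control in CPM. Eef1a2 measured 432, 424 and 394 TPM in CT-26 mice and 412, 450.1 and 449 in controls and was not called (-0.06 ± 0.05), and its share of eEF1A was 16.8, 16.7 and 16.7% of TPM in CT-26 mice and 18.6, 19.9 and 19.9% in controls, lower in each CT-26 mouse (exact p = 0.1). Eef2 measured 458, 459 and 424 TPM in CT-26 mice and 383, 435 and 428 in controls, uncalled at 0.13 ± 0.06.

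The hypothalamic calls were few and depended on the fit. Of 16 alternatives Eif4b was called in 15, Eif4ebp2 in 12, Eif5 in 11, Eef1a1 in 8 and Eif3f in 7. The number of members called higher went from 4 to 2 without CT-26 mouse 1, to 1 without control mouse 2 and to 2 without control mouse 3. Eif3e, Eif2s3x and Eif4a2 were not called but had the next smallest p-values among positive changes (0.21 ± 0.06, 0.16 ± 0.05 and 0.15 ± 0.05; adjusted p = 0.051, 0.068 and 0.072). The other tested members lay between -0.30 (Eif3j2) and 0.51 (Eif4ebp1).

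Whether the tumour-associated change differed between tissues was tested as an interaction of tissue and tumour over the 12 libraries, given as the gastrocnemius change minus the hypothalamus change. Of 56 members tested in both tissues 33 were called, all with the larger change in muscle. Of all 18746 genes in the fit 12.4% were called in that direction, 14.0% in the other and 26.4% in either. These shares were not limited to the 13572 genes tested in both tissues. Over all genes the calls were 2323 with the larger value in muscle and 2629 with the smaller, 3238 and 1634 with library totals, and 4081 and 868 on log2(TPM + 0.5), where 39 and 44 members were called. Of these 33, 30 were also called higher in muscle alone. The other 3 were Eif4e2, Eif4g2 and Eif4ebp2, whose muscle changes were positive but uncalled and whose hypothalamic changes were negative. Eif4e2 measured 43.4, 33.1 and 34.3 TPM in CT-26 mice and 22.2, 22.7 and 19.7 in controls in muscle. Hypothalamic Eif4e2 measured 24.6, 23.4 and 22.6 TPM in CT-26 mice and 24.02, 25.8 and 25.9 in controls. All 14 eIF3 genes were among the 33, as were 4 of 5 eIF2B genes. The largest differences were those of Eif4ebp1 (2.84 ± 0.22), Eif3j2 (1.46 ± 0.16) and Eif3b (1.23 ± 0.13). The place of Eif3j2 is uncertain, since the split of reads between it and Eif3j1 cannot be trusted. No difference between tissues was fitted for the summed pair.

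The same mouse gave both tissues, and with the mouse as a block 26 of the 33 were called. Lost were Eif3d (adjusted p = 0.12), Eif4g2 and Eif4e2 (0.10 each), Eif5 (0.058), Eif2s2 (0.056), Eef2 (0.054) and Eef1b2 (0.050). Called in muscle without a called difference between tissues were 6 members: Eif4b (0.27 ± 0.22), Eif2a (0.33 ± 0.18), Eif2d (0.23 ± 0.13), Eif2s3y (0.46 ± 0.31), Eif4a3 (0.34 ± 0.12) and Eif6 (0.40 ± 0.15). For these a difference was not shown, which does not make the changes equal.

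The resting levels differed between tissues for most members. In control mice 31 members had TPM in every hypothalamus above every muscle, 12 the reverse, and 15 overlapped; these values are a description, set side by side without a test. The same counts were not taken over all genes, so the split cannot be read as particular to the members. Eif5a2 lay furthest towards the hypothalamus (0.213 TPM in muscle and 13.4 TPM in the hypothalamus), followed by Eef1a1 (171 and 1811 TPM) and Eif1a (4.65 and 37.3 TPM). Eif4ebp1 lay furthest towards muscle (23.9 and 1.26 TPM), followed by Eif4ebp2 (48.9 and 16.9 TPM). The most abundant members of control muscle were Eif1 (744 TPM), Eef1a2 (697 TPM) and Eef2 (367 TPM), and the most abundant of control hypothalamus were Eef1a1, Eef1a2 (437 TPM) and Eif1 (433 TPM).

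Genes that act on or beside the factors were read from 7 lists; where fewer than 6 were called they are named, some of them chosen after their values were seen. Of 86 list genes tested in muscle 32 rose (37.2%) and 9 fell (10.5%), beside 19.6% and 18.3% of all genes. Of 12 kinase and phosphatase genes 4 rose in muscle: Mknk2, a kinase of eIF4E (2.42 ± 0.22), Ppp1r15a, the subunit that directs dephosphorylation of eIF2 alpha (2.34 ± 0.25), Rps6kb2 (0.39) and Eif2ak1 (0.34). The interferon-induced eIF2 alpha kinase Eif2ak2 fell by 0.96 on the log2 scale. Of 17 genes of mTORC1 and its regulators 7 rose and 5 fell. The inhibitors Sesn1 (3.66 ± 0.38) and Ddit4 (3.23 ± 0.41) had the highest values. The kinase Mtor itself (0.94) and its activator Rheb (0.55) also rose, as did Tsc1 (0.72), Larp1 (0.48) and Akt1s1 (0.38). Lower were Ddit4l (-1.40 ± 0.25), Sesn3 (-0.98), Deptor (-0.77), Castor2 (-0.75) and Mlst8 (-0.44). Ddit4l and Sesn3 are relatives of Ddit4 and Sesn1, so on TMM-scaled counts inhibitor genes moved in both directions. Of 21 tested tRNA synthetase genes and their scaffold 13 rose, among them Vars (1.74 ± 0.14) and Eprs (1.14 ± 0.15), and the scaffold gene Aimp2 was lower (-1.87 ± 0.15).

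The other lists were read in the same way. Of 7 tested termination and recycling genes 3 rose, the release factor Etf1 (1.07 ± 0.13), the recycling ATPase Abce1 (0.71) and Hbs1l (0.37). Of 13 tested genes that modify the factors 3 rose (23.1%, near the 19.6% of all genes), Eef1akmt4 (1.17 ± 0.34), the hypusine enzyme Dhps (0.96) and Dph7 (0.55). Of 6 poly(A)-binding protein genes and partners 2 rose, Paip1 (0.40) and Paip2b (0.63). Of 10 mitochondrial translation factors 2 were called, both lower (20%, near the 18.3% of all genes called lower): Mtif2 (-0.46) and Mtrf1l (-0.68). Over the 7 lists 5 of 87 genes tested in the hypothalamus were called, all higher (5.75%, beside 3.94% of all genes called higher and 8.77% called): Castor1 (0.66), Ddit4 (0.51), Guf1 (0.41), Dph7 (0.31) and Paip2b (0.31). Median changes of the lists in muscle ran from -0.27 for mitochondrial factors to 0.60 for tRNA synthetases, beside 0.64 for the members.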

How the data were processed

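Per the labels, total RNA went into directional MGIEasy libraries, sequenced on an MGISEQ-2000 with reads of 100 bp from both ends. The submitters' processing notes name RSEM 1.3.3, STAR 2.7.9a, Trim Galore 0.6.6 and build GRCm38. The annotation release and strand setting are not given in the sources used here. The tables the authors deposited hold RSEM expected counts (estimated reads per gene that need not be whole), TPM, FPKM and an effective length per gene. TPM and FPKM were scaled by length and depth by the authors, and FPKM was not used. The effective length served as an offset in 1 alternative. Of 55416 identifiers 52135, holding 99.648% of counts, were named from GENCODE M21 (GRCm38). Left out were 11 pseudogene or non-coding entries with member names and 10 kinases and methyltransferases.

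Expected counts were rounded and tested per tissue with edgeR 4.0.16 in R 4.3.3: filterByExpr, TMM, quasi-likelihood test, Benjamini-Hochberg adjustment over all genes tested, and calls at an adjusted p below 0.05. This covered 14265 genes in the gastrocnemius, 17961 in the hypothalamus and 18746 in the fit of 12 libraries. Shares and ratios of TPM were compared with exact two-sided permutation tests, whose smallest p is 0.1. The code was tested on simulated data. Alternatives used DESeq2 1.42.0, limma 3.58.1 on log2(TPM + 0.5) and log2(TPM + 0.1), other scalings and filters, omission of each mouse, a replicate block and summed paralogs. Libraries of a group differed by more than sampling noise.

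All members are named. Values per library are given for 13 chosen members, the 6 highest and 6 lowest called changes per tissue, and members whose change differed between tissues; list genes are named at a log2 change of at least 1, up to 3 per list, and others were named after their values were seen. The members and lists were chosen with earlier results of these data known. Within a tissue, equal replicate numbers belong to different mice and do not pair them. Between tissues a number marks the same mouse, by the sample titles, and its deviations correlated at -0.142 to 0.227. For CT-26 and control mice of equal number, which are different animals, the values were -0.0786 to 0.34 in the gastrocnemius and -0.125 to -0.025 in the hypothalamus. These ranges overlap, so the correlations do not show that a number marks the same mouse.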

Additional observations from a re-analysis of the deposited data

Results flagged for a closer look

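The change with the tumour differed between the tissues for 33 members by the interaction term of the 12-library fit, which is what singled them out; each value is the log2 change in the gastrocnemius minus that in the hypothalamus. For the cap complex and its repressors it was Eif4ebp1 2.84, Eif4a1 0.93, Eif4g3 0.88, Eif4ebp2 0.58, Eif4g2 0.46 and Eif4e2 0.35. For the eIF3 genes it was Eif3j2 1.46, Eif3b 1.23, Eif3c 1.13, Eif3a 1.12, Eif3g 1.02, Eif3j1 0.85, Eif3f 0.76, Eif3l 0.69, Eif3e 0.62, Eif3i 0.59, Eif3m 0.58, Eif3k 0.53, Eif3h 0.52 and Eif3d 0.36. Among eIF2 and eIF2B genes it came to Eif2b5 0.89, Eif2b1 0.87, Eif2s2 0.58, Eif2b3 0.51, Eif2s1 0.51 and Eif2b4 0.45, and among start codon factors to Eif1 1.04, Eif5b 0.89, Eif1a 0.75 and Eif5 0.49. For elongation factors the difference was Eef1a1 0.83, Eef2 0.80 and Eef1b2 0.57. The values of Eif3j1 and Eif3j2 rest on an uncertain split of reads, and no difference was fitted for their sum. With the mouse as a block 26 of the 33 were still called, and the calls of Eif3d, Eif4g2, Eif4e2, Eif5, Eif2s2, Eef2 and Eef1b2 were lost.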

How the results depend on the processing

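Of the 36 members called in the gastrocnemius 25 were called in all alternatives, summed paralogs included. Of the 33 with a tissue difference 22 were called in all alternatives of that fit, in which paralogs were not summed. Eif1a, Eif3j1 and Eif3j2 are among the 22, so their tissue difference was not tested on summed pairs. The gastrocnemius count ranged from 28 (without any 1 control) to 50 (log2(TPM + 0.5)) and was 36 with the replicate block; 1 member was lower in the 12-library contrast. The hypothalamus counts were the least stable. Members called higher there numbered 7 with DESeq2, library totals or a 1 CPM filter, 2 with effective lengths or the replicate block, 1 on either TPM scale, 0 in the 12-library contrast and 1 to 5 when 1 mouse was left out. Members called lower numbered 2 with DESeq2 or no filter, 0 on either TPM scale or in the 12-library contrast, and 0 to 2 with 1 mouse left out. From expected counts the Eif4ebp1 share differed by 40.07 points in the gastrocnemius and 1.188 in the hypothalamus. Signs turned for uncalled members of the gastrocnemius, given for log2(TPM + 0.5) and log2(TPM + 0.1): Eef1a2 (0.2141, 0.2142, and 0.03637 with library totals), Eif1ax (0.565, 0.5733, and 0.2001 with effective lengths), Eif4e (0.1638, 0.1658), Eif4e3 (0.2638, 0.269, and 0.1005 with library totals) and Eif5a2 (0.0453, 0.09826). With 1 mouse left out Eef1e1 ranged from -0.03789 to 0.2879, Eif4a2 from -0.04266 to 0.1077 and Eif4e3 from -0.3395 to 0.04995. The sum of Eif1a and Eif1ax gave -0.04702 for the called Eif1a. In the hypothalamus Eif4a1 turned to 0.01673 (library totals), 0.006783 (effective lengths) and 0.003271 (1 CPM filter), and ranged from -0.02219 to 0.0135 with 1 mouse left out. Eif5a ranged from -0.0089 to 0.04435, and Eif6 turned to -0.0926, -0.09334 and -0.07671 on the TPM scales and with effective lengths. The causes were not tested. Low counts kept Eif4e1b and Eif4ebp3 out of the gastrocnemius test; without the filter both were tested.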
